A study of Homo sapiens with 8 samples.

Results

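Components of tumour necrosis factor (TNF) signalling and of the NF-kappa-B transcription factors were compared between PC-3 clones that had received RWDD4 and PC-3 clones that had received an empty vector. PC-3 is an established line of androgen-independent human prostate cancer cells. A gene was a member when its symbol named a TNF ligand, TNF receptor or TNF-induced protein, a TRAF adaptor, an NF-kappa-B subunit or NFKBI gene, an IKBK kinase subunit, or one of the inhibitor of apoptosis proteins BIRC2, BIRC3, BIRC6 and XIAP. The choice used gene symbols and no measured value. It found 15 of the 14884 genes with a named probe set. They were the ligand TNF, the adaptors TRAF1, TRAF3, TRAF4 and TRAF5, the subunits NFKB1, NFKB2, REL, RELA and RELB, the NFKBI-named gene NFKBIL1, and the inhibitors of apoptosis BIRC2, BIRC6 and XIAP. The symbol pattern also took in TNFRSF10A-DT, a non-coding transcript named for its place beside a death receptor gene, which is no receptor itself. The remaining ligands, receptors and kinase subunits of the rule were not analysed here.

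All 8 samples were clonal isolates of PC-3 that had received a lentiviral vector and had been selected with blasticidin. In 4 of them (clones 17, 24, 5 and 6) the vector held RWDD4, and in the other 4 (control clones 2, 3, 4 and 5) it was empty. Each clone was measured on 1 Affymetrix array, and each clone is a line grown from its own isolate, so the spread within a group is a spread between clones. The promoter that drives RWDD4 in the vector was not given in the sources used here. Values were log2 expression values per probe set, and a change is the RWDD4 mean minus the control mean on that scale. RNA came from whole cultures, so less RNA of a gene in every cell and fewer cells that express it cannot be told apart.

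TNF is a cytokine whose trimers bind receptors on the cell surface. Receptors recruit TRAF adaptors, which bring the inhibitor of apoptosis proteins BIRC2 and BIRC3, both ubiquitin ligases, to the receptor. In the canonical branch an IkappaB kinase then frees dimers of NFKB1 (p50) with RELA or REL to enter the nucleus. In the non-canonical branch TRAF3 and BIRC2 hold the kinase NIK (MAP3K14) at a low level, and when they let go of it NFKB2 is cut from p100 to p52 and acts with RELB. PC-3 cells are known for constitutive NF-kappa-B activity.

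RWDD4 itself lay at 9.87 to 10.46 in its own clones against 6.64 to 8.0 in the controls, a rise of 2.94 (SE 0.25, adjusted p 5.98e-05), or 7.67-fold. The epithelial keratins KRT18 and KRT19 were high in both groups, with RWDD4 means of 10.61 and 10.24 and control means of 11.02 and 10.78, and both fell. Of the other epithelial markers measured, KRT8 fell from a mean of 6.78 to 6.50, EPCAM had means of 6.53 and 6.40 in the RWDD4 and control clones and did not pass, and the basal keratin KRT5 was below the median of all probe sets, at 3.67 and 3.95. The prostate-specific antigen gene KLK3 had means of 5.76 and 5.81 in the RWDD4 and control clones. KLK2, the other androgen-responsive gene measured, had means of 5.75 and 5.83, and neither passed. The median of all probe sets and arrays was 4.92, and KLK3 and KLK2 lay above it in both groups. Of 2 measured blood cell markers and 4 measured stromal and endothelial markers, CD14, LYZ, VWF and DCN were below it in both groups, and PECAM1 and THY1 lay above it at means of 5.44 and 5.57 and of 6.07 and 6.43 in the RWDD4 and control clones. Of the blood, stromal and endothelial markers, CD14, VWF and THY1 fell by 0.42, 0.31 and 0.36 on the log2 scale, and the part of other cell types in the results was not tested. In the control group clone 2 stood apart. On the leading axis of variation within groups, an axis fitted over all genes and scaled to unit SD, it lay at -1.77, the other control clones at -0.74 to -0.37 and the RWDD4 clones at 0.60 to 1.09.

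Of the 15 members 6 rose and 5 fell in the RWDD4 clones by limma at an adjusted p under 0.05. The background was high: 25.1% of all genes tested rose and 21.6% fell. BIRC2, BIRC6, XIAP, REL, TRAF5 and NFKB1 rose, and NFKB2, TRAF4, RELB, NFKBIL1 and RELA fell. TNF, TRAF1, TRAF3 and TNFRSF10A-DT did not pass. After quantile normalization or median centring of the arrays 5 members rose and 7 fell. Calls over all genes also became more frequent. From the deposited values 3741 genes rose and 3214 fell, and after these scalings 7561 and 9072 of 14884 passed in either direction. The groups did not overlap in 12 members, 6 higher and 6 lower in the RWDD4 clones, beside 44.8% of all genes. The median change was -0.21 over the members and -0.08 over all genes.

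**Figure D1:**
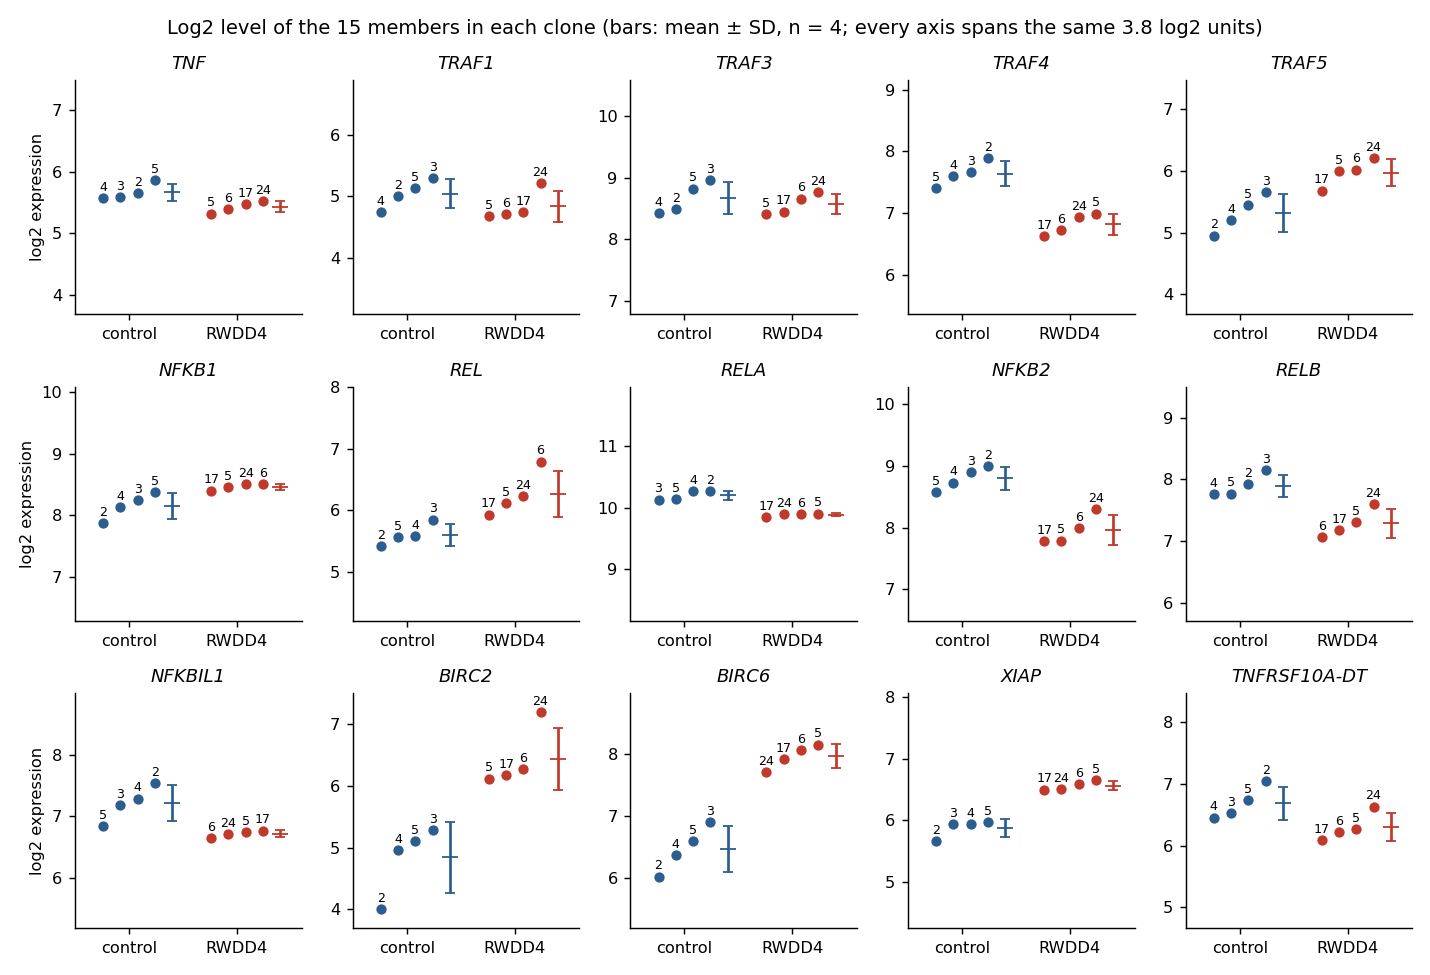
Log2 expression (vertical axis, the same length of scale in every panel) of each of the 15 members in the 4 control clones (blue) and the 4 RWDD4 clones (red), with clone numbers above the points, points ordered by value within a group, and mean ± SD beside them. BIRC2 and BIRC6 show the widest gaps between groups, 0.82 log2 units each, and TRAF1, TRAF3 and TNFRSF10A-DT overlap.

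The inhibitors of apoptosis BIRC2, BIRC6 and XIAP all rose, and the 2 largest rises among the members were theirs. BIRC5 and BIRC7, which belong to the same family and were measured but are no members, did not pass, at 0.35 (SE 0.17, adjusted p 0.116) and -0.21 (SE 0.10, adjusted p 0.0962). In the limma fit with the trend over genomic span removed, described below, BIRC5 passed as higher, at 0.48 (SE 0.17, adjusted p 0.0341). BIRC7 did not pass there, at 0.04. BIRC2 (cIAP1, a ubiquitin ligase of TNF receptor complexes) lay at 6.17, 7.19, 6.12 and 6.27 in RWDD4 clones 17, 24, 5 and 6. In control clones 2, 3, 4 and 5 it lay at 4.01, 5.29, 4.96 and 5.11. Every RWDD4 clone was above every control clone, clone 24 stood above the other RWDD4 clones, and clone 2 below the other controls. The mean was 6.44 ± 0.51 in the RWDD4 clones and 4.84 ± 0.57 in the control clones (SD, n = 4 each), a rise of 1.60 (SE 0.30, adjusted p 0.00154), or 3.02-fold. The control mean was just below the median of all probe sets. The rise was 1.32 without control clone 2 and 1.34 without RWDD4 clone 24, and BIRC2 passed in all 8 fits that each left out a clone.

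BIRC6, a very large protein that joins ubiquitin to its targets and restrains caspases, had the smallest adjusted p of the members. Its values in RWDD4 clones 17, 24, 5 and 6 were 7.93, 7.71, 8.16 and 8.07, and in control clones 2, 3, 4 and 5 they were 6.02, 6.90, 6.37 and 6.59. The groups were 0.82 log2 units apart at their nearest clones. BIRC6 rose by 1.50 (SE 0.17, adjusted p 0.000122), or 2.82-fold. XIAP, which binds and blocks caspases directly, rose less but with little spread. It lay at 6.50, 6.51, 6.66 and 6.59 against 5.66, 5.94, 5.94 and 5.98, a rise of 0.69 (SE 0.10, adjusted p 0.000326), or 1.61-fold. Control clone 2 was again the lowest for both genes. Of their measured antagonists, the mitochondrial protease HTRA2 did not pass, with a difference of -0.25 (SE 0.10), and XAF1, which binds XIAP, fell by 0.37 (SE 0.12) with overlapping groups. XAF1 passed in 3 of the 8 fits that left out a clone.

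The 5 subunits of NF-kappa-B all passed, in opposite directions. REL and NFKB1 rose, and NFKB2, RELB and RELA fell. NFKB2 (p100, the precursor of p52) had the largest fall of all members. It lay at 7.78, 8.30, 7.79 and 7.99 in RWDD4 clones 17, 24, 5 and 6, and at 8.99, 8.90, 8.73 and 8.57 in control clones 2, 3, 4 and 5. All RWDD4 clones were lower, with clone 24 nearest to the controls. The means were 7.96 ± 0.25 and 8.80 ± 0.19 (SD, n = 4 each), and NFKB2 fell by 0.83 (SE 0.14, adjusted p 0.000792), or 1.78-fold.

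RELB, the usual partner of p52, fell as well. Its levels were 7.18, 7.60, 7.31 and 7.06 in the RWDD4 clones and 7.92, 8.15, 7.76 and 7.77 in the control clones, in the same order. Clone 24 was again the highest RWDD4 clone, still under the lowest control. RELB fell by 0.61 (SE 0.13, adjusted p 0.00409), or 1.53-fold. RELA (p65, the main activating subunit of the canonical dimer) varied least. It lay at 9.85, 9.89, 9.90 and 9.89 in RWDD4 clones 17, 24, 5 and 6 and at 10.27, 10.13, 10.26 and 10.14 in control clones 2, 3, 4 and 5. The groups were 0.23 apart, and RELA fell by 0.32 (SE 0.08, adjusted p 0.00876), or 1.25-fold.

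REL (c-Rel, an activating subunit best known from lymphocytes) rose by 0.66 (SE 0.17, adjusted p 0.00949), or 1.58-fold. It lay at 5.93, 6.23, 6.12 and 6.79 in RWDD4 clones 17, 24, 5 and 6 and at 5.42, 5.85, 5.58 and 5.57 in control clones 2, 3, 4 and 5. Clone 6 was well above the rest, and clone 17 was only 0.08 above control clone 3. NFKB1 (p105, the precursor of p50) lay at 8.40, 8.50, 8.45 and 8.50 against 7.87, 8.24, 8.13 and 8.37. The groups were 0.02 apart, and the rise was 0.31 (SE 0.11, adjusted p 0.0423), or 1.24-fold. Its adjusted p was the largest among the 11 members that passed. It passed in only 2 of the 8 fits that left out a clone, at 0.34 without control clone 3 and 0.38 without control clone 5, and lay at 0.22 without control clone 2. It also failed to pass after each of 3 other scalings of the arrays, at 0.06 to 0.20, and with a variance model that follows intensity (adjusted p 0.0544).

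Of 4 ratios between subunits within an array, 3 parted the groups and 1, RELB over RELA, did not. Each of these 3 sets a subunit that was higher in every RWDD4 clone against one that was lower in every RWDD4 clone. Their parting thus follows from the levels given above and is no further result. The log2 ratio of the NFKB2 to the NFKB1 signal, set to 0 at the mean of the control clones, was -1.26, -0.84, -1.31 and -1.16 in RWDD4 clones 17, 24, 5 and 6. In control clones 2, 3, 4 and 5 it was 0.47, 0.01, -0.04 and -0.45. The mean shift was -1.14 (SD 0.21 in the RWDD4 and 0.38 in the control clones, n = 4 each). The ratio of REL to RELA moved the other way, by 0.98. It lay at 0.68, 0.93, 0.81 and 1.50 in the RWDD4 clones and at -0.26, 0.31, -0.08 and 0.02 in the controls, in the same order. RELB over REL lay at -2.02 to -0.92 in the RWDD4 clones, against -0.12 to 0.21. RELB over RELA had a mean shift of -0.29 (SD 0.23 and 0.22) with overlap, since RWDD4 clone 24 lay at 0.01 and control clone 4 at -0.20. These ratios were picked after the values were seen and show unequal change of the genes, not which dimers the cells held. NFKBIL1, which carries an IkappaB-like name and lies beside the TNF cluster, fell by 0.50 (SE 0.13, adjusted p 0.0113), or 1.41-fold. It lay at 6.77, 6.72, 6.75 and 6.65 in the RWDD4 clones and was more spread in control clones 2, 3, 4 and 5, at 7.54, 7.19, 7.29 and 6.85.

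Genes of NF-kappa-B subunits are themselves known targets of NF-kappa-B, so the promoters of the subunits were searched for the kappa-B consensus on both strands. The stretches shown are the 150 bases just before an annotated start, on the + strand, from RefSeq on build GRCh38.p14, with matches in capitals. They are chr2:60881424-60881573 for REL, chr4:102501209-102501358 for NFKB1 and chr10:102394428-102394577 for NFKB2. REL has 1 listed start, NFKB1 has 2, of which the more upstream is shown, and NFKB2 has 3. The NFKB2 stretch lies before the second of these and inside the annotated span of the gene. The capitals in REL and the first run of capitals in NFKB2 are overlapping matches on opposite strands.
REL: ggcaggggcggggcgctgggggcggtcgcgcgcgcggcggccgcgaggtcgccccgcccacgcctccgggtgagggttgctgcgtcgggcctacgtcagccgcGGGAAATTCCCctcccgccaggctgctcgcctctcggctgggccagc
NFKB1: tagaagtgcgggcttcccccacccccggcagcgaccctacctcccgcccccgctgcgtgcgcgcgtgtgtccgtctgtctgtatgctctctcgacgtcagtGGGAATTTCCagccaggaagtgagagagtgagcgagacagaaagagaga
NFKB2: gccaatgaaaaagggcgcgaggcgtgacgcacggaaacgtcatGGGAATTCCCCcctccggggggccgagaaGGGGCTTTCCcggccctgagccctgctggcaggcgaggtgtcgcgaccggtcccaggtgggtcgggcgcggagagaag

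REL held 1 run of matching bases, starting 47 bases before its start, NFKB1 held 1 at 49 bases, and this NFKB2 stretch held 2, at 107 and 78 bases. The third NFKB2 start had 2 more runs in its window, at 176 and 21 bases. Neither RELA window held a match, and RELB had no entry. Subunit genes with a match were thus found among those that rose (REL, NFKB1) and those that fell (NFKB2). In windows from 250 bases before to 50 after a start, 5 of the 13 members with an entry held the consensus, the others being TRAF3, 33 bases before its start, and BIRC6. The share of genes was 13.3% over all genes of the promoter table and 15.9% over the measured genes it holds. The 13 members had 26 windows, and a gene with more starts has more chances of a match. Counted by window, the share was 23.1% over the members, 11.3% over the whole promoter table and 12.8% over the measured genes. Among textbook target genes of NF-kappa-B the share of genes was 5 of 11, with CCL20, CXCL2, CXCL3 and IRF1, which fell, and VCAM1, which did not pass. A match is a description of letters and not of binding.

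The TRAF adaptors, which link receptors to kinases and ubiquitin ligases, did not move as a group: TRAF4 fell, TRAF5 rose, and TRAF1 and TRAF3 did not pass. TRAF4, a divergent member that is found in epithelial cells and often raised in carcinomas, lay at 6.63, 6.94, 6.99 and 6.73 in RWDD4 clones 17, 24, 5 and 6. In control clones 2, 3, 4 and 5 it lay at 7.89, 7.66, 7.60 and 7.40. The groups were 0.42 apart, and TRAF4 fell by 0.82 (SE 0.12, adjusted p 0.000491), or 1.76-fold. TRAF5, a close relative of TRAF3 that serves TNF receptors, lay at 5.68, 6.20, 5.99 and 6.02 against 4.95, 5.66, 5.20 and 5.45. The rise was 0.66 (SE 0.16, adjusted p 0.00686), or 1.58-fold, although RWDD4 clone 17 was only 0.02 above control clone 3.

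TRAF3, the brake on NIK, overlapped between the groups. It lay at 8.45, 8.77, 8.41 and 8.66 in the RWDD4 clones and 8.49, 8.96, 8.42 and 8.82 in the control clones, a difference of -0.10 (SE 0.14) with an adjusted p of 0.575. NIK itself (MAP3K14) did not pass either, at -0.11 (SE 0.16). TRAF1, an adaptor that is itself induced by NF-kappa-B, lay at 4.74, 5.21, 4.68 and 4.71 in the RWDD4 clones and 5.01, 5.30, 4.74 and 5.13 in the control clones. RWDD4 clone 24 lay within the range of the controls, and the difference was -0.21 (SE 0.15, adjusted p 0.264). These values do not show that TRAF1 and TRAF3 were equal in the groups.

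TNF, the only ligand measured under the rule, was slightly lower in every RWDD4 clone without passing. It lay at 5.48, 5.52, 5.32 and 5.40 in RWDD4 clones 17, 24, 5 and 6 and 5.65, 5.59, 5.57 and 5.86 in control clones 2, 3, 4 and 5. The groups were 0.05 apart, and the difference of -0.23 (SE 0.10) had an adjusted p of 0.0693. TNF had 8 probe sets, of which 7 held identical values on every array and count as 1 measurement; the other gave -0.19 (SE 0.11). After quantile normalization or median centring TNF passed, at -0.27 and -0.36. TNF and NFKBIL1 lie on chromosome 6 with only LTA among coding genes between them, and both had lower means in the RWDD4 clones. TNFRSF10A-DT was read by 2 probe sets that differed, at -0.38 (SE 0.15, adjusted p 0.0597) in the brighter set and 0.04 (SE 0.09) in the other. The brighter set lay at 6.09, 6.63, 6.27 and 6.22 in the RWDD4 clones and 7.04, 6.52, 6.45 and 6.73 in the control clones, in the same order, with overlap at clone 24.

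**Figure D2:**
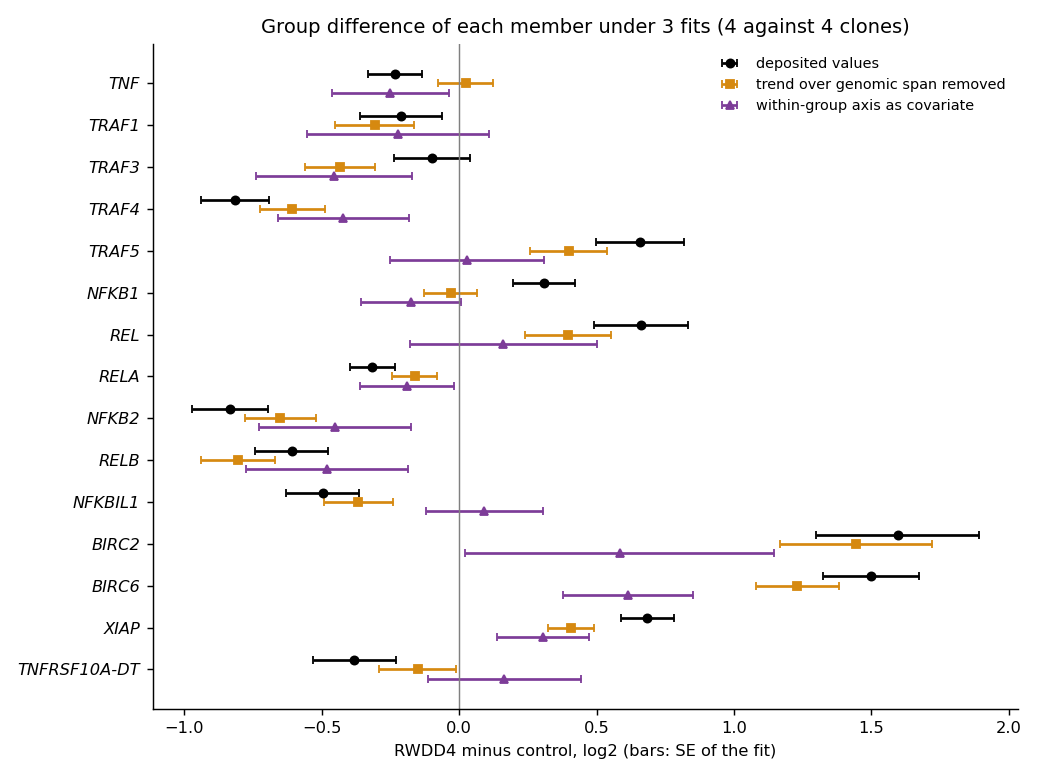
RWDD4 minus control on the log2 scale (horizontal axis, bars are SE of the fit) for each of the 15 members from the deposited values (black circles), with each array's trend over genomic span removed (orange squares), and with each array's place on the leading within-group axis as covariate (purple triangles). BIRC2, BIRC6, XIAP, REL and TRAF5 lie above 0 in all 3 fits and NFKB2, RELB, RELA, TRAF4, TRAF1 and TRAF3 below it. NFKBIL1, TNF, TNFRSF10A-DT and NFKB1 change sign between fits, with NFKB1 at 0.31, -0.03 and -0.18.

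Across all genes on these arrays the change was related to a gene's genomic span, and the members followed the same order. Those that rose had a median span of 52.2 kb and those that fell 10.3 kb, against 48.4 kb and 11.3 kb over all genes that rose and fell. BIRC6 spans 262 kb and NFKB1 116 kb, while TRAF4 spans 6.95 kb and NFKB2 8.42 kb. RELB, at 36.7 kb, is the longest member that fell, and BIRC2, at 31.5 kb, the shortest that rose. With each array's trend over span removed, 8 of the 11 calls were kept: BIRC2 at 1.44, BIRC6 at 1.23, XIAP at 0.41, TRAF5 at 0.40, RELB at -0.80, NFKB2 at -0.65, TRAF4 at -0.61 and NFKBIL1 at -0.37. REL at 0.40 (adjusted p 0.0536), RELA at -0.16 (0.127) and NFKB1 at -0.03 (0.817) no longer passed, and TRAF3 passed as lower, at -0.43 (0.0151). TNF lay at 0.02 in that fit, in which 7223 of all 14884 genes passed.

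**Figure D3:**
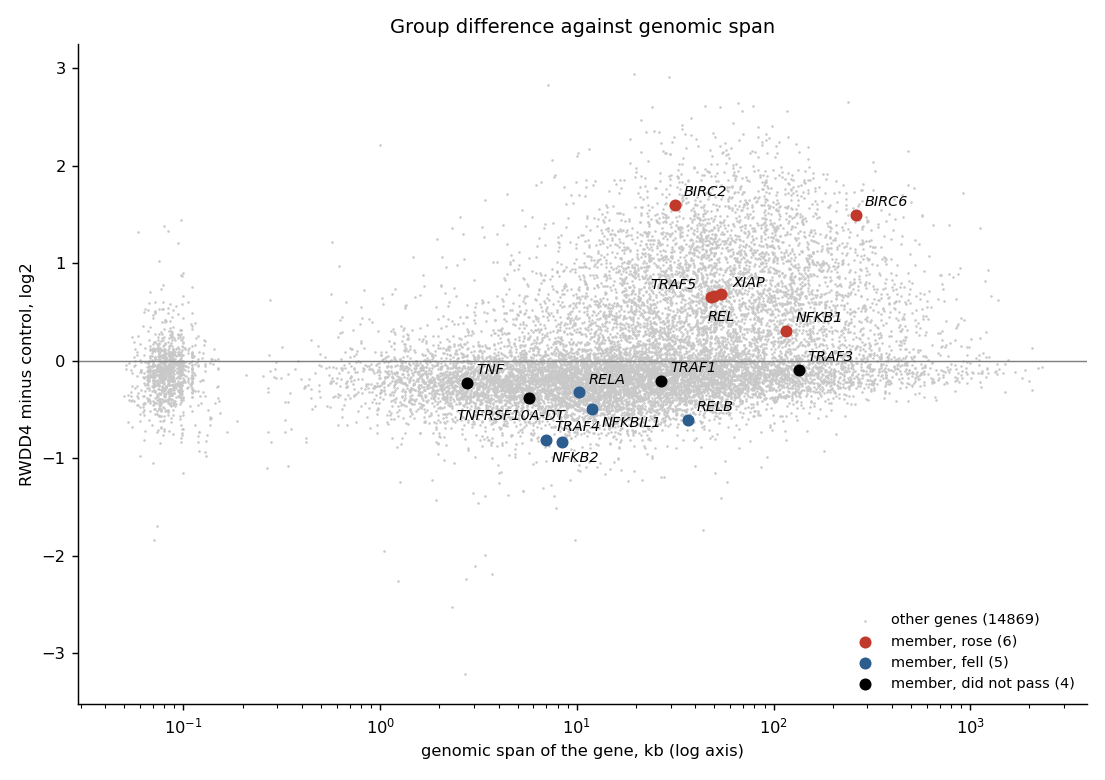
RWDD4 minus control in log2 units (vertical axis) against genomic span in kb (horizontal log axis) for all other genes with an annotated span (grey) and the 15 members, coloured by whether they rose (red), fell (blue) or did not pass (black). Members that rose span 31.5 to 262 kb and members that fell 6.95 to 36.7 kb.

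The same members also varied along the axis that parts control clone 2 from the other controls. In all 6 members that rose, control clone 2 was the lowest control, and in 4 of the 5 that fell it was the highest, RELB being the exception. Over all genes tested the shares were 75.5% of those that rose and 51.1% of those that fell. Without that clone 10 of the 11 calls were kept, the exception being NFKB1, and 6286 of all 14884 genes passed. With each array's position on the axis as a covariate, 0 of the 15 members and 1 of all 14884 genes passed by limma. There BIRC6 lay at 0.61 (SE 0.24), BIRC2 at 0.58 (SE 0.56), NFKB2 at -0.45 (SE 0.28), RELB at -0.48 (SE 0.30) and TRAF4 at -0.42 (SE 0.24). In that fit the differences of all 11 members that had passed were closer to 0, their errors were larger, and NFKB1 and NFKBIL1 changed sign. The groups did not overlap on the axis, so group and axis position cannot be fully told apart.

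RWDD4 clone 24 gave the highest value of its group in 8 of the 15 members, against 25.0% of all genes. The 8 were BIRC2, NFKB2, RELB, TRAF1, TRAF3, TRAF5, TNF and TNFRSF10A-DT. Clone 17 was the lowest of its group in 8 members, against 23.0% of all genes. In NFKB2, RELB, TRAF1, TRAF3, TNF and TNFRSF10A-DT, which had lower means in the RWDD4 clones, clone 24 lay nearest to the controls or among them. In BIRC2 and TRAF5, which rose, it lay farthest from them. Both placements follow from clone 24 being the highest of its group.

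Beyond the members, 83 of 117 other genes of the pathway, in 5 lists written from general knowledge, had a named probe set. Of these, 25 rose and 34 fell, a median change of -0.21 beside -0.08 for all genes. The shares over all genes tested, 25.1% up and 21.6% down, are the background for these counts and for those of each list below. Among adaptors and kinases downstream of the receptors 11 of 30 rose and 10 fell (median -0.02). MALT1, the protease of the CARD and BCL10 complex, rose by 2.09 (lowest RWDD4 clone 8.21, highest control 7.05), MAP3K7 (TAK1, which activates the IkappaB kinases) by 1.61, RIPK2, the kinase of NOD receptors, by 1.48 and TBK1, a kinase related to the IkappaB kinases, by 1.36. CHUK, an IkappaB kinase subunit, rose by 1.18. Its values were 7.01, 7.01, 7.42 and 7.11 in RWDD4 clones 17, 24, 5 and 6 and 5.49, 6.21, 5.89 and 6.25 in control clones 2, 3, 4 and 5. TRADD, the adaptor that binds TNF receptor 1, had the largest fall of the list, 0.95. Control clone 2 was the lowest control in MALT1 (5.26), MAP3K7, RIPK2, TBK1 and CHUK. In the fit with the axis covariate MALT1 lay at 0.11 (SE 0.21), MAP3K7 at 0.53 (SE 0.20) and RIPK2 at 0.56 (SE 0.23). TBK1 lay there at 0.78 (SE 0.48), CHUK at 0.29 (SE 0.22) and TRADD at -0.12 (SE 0.33). CHUK, TRADD and the other pathway genes named here that are not among the 4 largest changes of their list were picked after the values were seen.

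**Figure D4:**
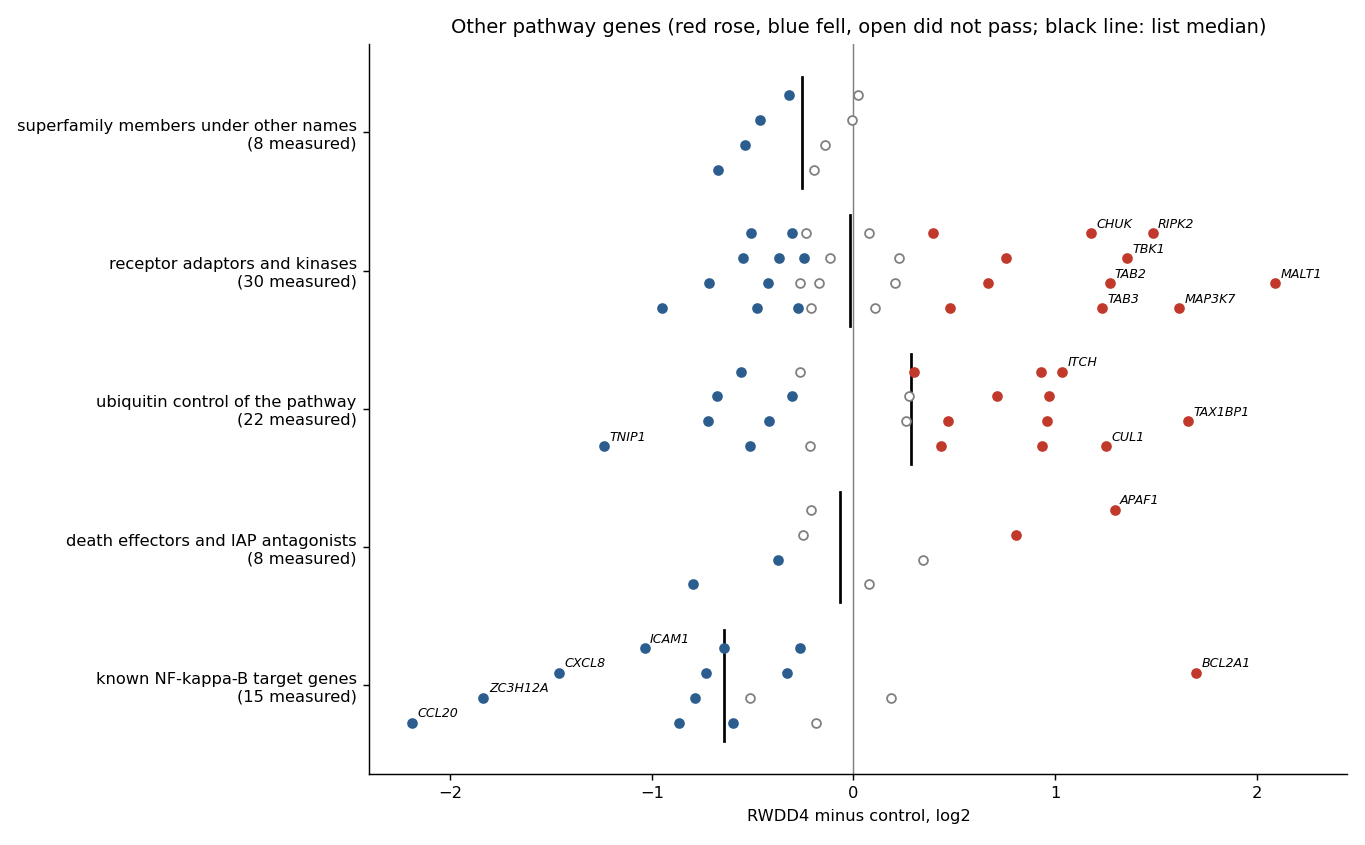
RWDD4 minus control in log2 units (horizontal axis) for the 83 other pathway genes in 5 lists (rows, with points spread vertically only to part them), filled red where the gene rose, blue where it fell and open where it did not pass, with the list median as a black line. The target genes of NF-kappa-B have the lowest median, -0.64, and ubiquitin control genes the highest, 0.29.

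Genes for ubiquitin control of the pathway were split, with 11 of 22 up and 7 down (median 0.29). TAX1BP1, an adaptor of the ubiquitin editor A20, rose by 1.66, CUL1, the scaffold of the ligase that marks IkappaB for destruction, by 1.25, and ITCH, a ligase that works with A20, by 1.04. BTRC and FBXW11, the receptor subunits of that IkappaB ligase, rose by 0.97 and 0.96, and the deubiquitinase CYLD by 0.93. TNIP1, an A20-binding inhibitor that NF-kappa-B induces, fell by 1.24, with a highest RWDD4 clone of 8.62 and a lowest control of 9.20. RBCK1 and RNF31, which build linear ubiquitin chains, fell by 0.72 and 0.56, and BCL3, a nuclear IkappaB-like protein, by 0.68. In the fit with the axis covariate TAX1BP1 lay at 0.10 (SE 0.36), CUL1 at 0.31 (SE 0.20), ITCH at 0.13 (SE 0.20) and TNIP1 at -1.01 (SE 0.32).

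The list of superfamily members that go by other names, which also held the adaptor EDARADD, included no rise: 4 of 8 measured fell (median -0.26). The receptor RELT fell by 0.67, the ligand CD70 by 0.54, the neurotrophin receptor NGFR by 0.46 and EDARADD, an adaptor of the ectodysplasin receptor, by 0.32. In EDARADD and CD70 the groups overlapped, and EDARADD passed in 2 of the 8 fits that left out a clone. The EDARADD means, 4.30 in the RWDD4 and 4.62 in the control clones, were below the median of all probe sets. The receptors EDAR, EDA2R and CD27 and the ligand EDA did not pass, at -0.01, -0.14, -0.20 and 0.02. Of 8 death effectors and antagonists 2 rose and 2 fell: APAF1, the core of the apoptosome, rose by 1.30 and MLKL, the effector of necroptosis, by 0.81, and BID, which carries death signals to mitochondria, fell by 0.80.

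Of 15 measured target genes of NF-kappa-B 11 fell and 1 rose, with a median of -0.64. Over all genes 21.6% fell and 25.1% rose, with a median of -0.08. PTGS2, which fell, had means of 3.12 in the RWDD4 and 3.45 in the control clones, below the overall probe set median of 4.92. VCAM1 and CCL2, which did not pass, were also below it in both groups. CCL20, CXCL8 and ZC3H12A fell by 2.19, 1.46 and 1.84, and BCL2A1, a survival gene of the BCL2 family, rose by 1.70. CCL20 lay between 5.82 and 7.45 in the control clones and between 4.20 and 4.50 in the RWDD4 clones, which is below the overall probe set median. BCL2A1 reached 9.24 in RWDD4 clone 24 and 7.43 in RWDD4 clone 5, and its highest control was 7.08. These targets are short, with a median span of 8.63 kb against 20.7 kb for all genes. With the span trend removed their median was -0.53, beside -0.03 for all genes. In the fit with the axis covariate the median of the targets was -0.38, beside -0.03 for all genes. There 0 of the 83 pathway genes passed by limma, beside 1 of all 14884 genes.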

How the data were processed

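The data were log2 expression values of 53617 probe sets on 8 arrays, deposited by the authors. Partek and RMA appear in the submitters' processing notes, with no version or setting. RMA corrects background, normalizes arrays to each other and summarises probes, which compresses small differences near background. The build, batches and scan dates were not given in the sources used here. The platform annotation gave 16098 probe sets exactly 1 symbol, for 14884 genes, and left 37519 unlisted. Of several probe sets of a gene, the brightest on average was used (the lowest number where equal). All genes were fitted together in limma 3.58.1 (R 4.3.3; lmFit, then eBayes), two-sided, RWDD4 minus control, without covariates, with Benjamini-Hochberg adjustment over 14884 genes. A gene rose or fell at an adjusted p under 0.05. Genomic spans come from a RefSeq table (GRCh38.p14), and lowess (span 0.3) removed each array's trend over log2 span. The axis covariate was each array's projection on the leading component of the values centred within groups. Precision is limited by the number of arrays.

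Members in full were up to 8 per direction with the largest change that passed, plus 19 central pathway genes where measured; in effect all 15 members are given. From each list of other genes up to 4 with the largest change that passed were named, and others were picked after their values were seen. Members, lists and alternatives were chosen with earlier results of these data known. The alternatives were another variance model, the mean of a gene's probe sets, a filter at the median of all probe sets, 3 scalings, array weights, the span trend, the axis covariate and leaving out each clone. Comparison of protein sequences between members was not made.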

Additional observations from a re-analysis of the deposited data

Results flagged for a closer look

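A gap rule for groups of 4 was applied to the 15 members and the 20 other pathway genes named for their change, 70 groups in all, of which chance flags about 1 in 20. It marked 5 values that lie far from the other clones of their group. RWDD4 clone 24 was the far clone in 3 of them: BIRC2 lay at 7.19 there against 6.12 to 6.27 in the other RWDD4 clones, TRAF1 at 5.21 against 4.68 to 4.74, and the receptor gene RELT at 7.83 against 7.46 to 7.5. Control clone 2 was low in XIAP, at 5.66 against 5.94 to 5.98 in the other controls. RWDD4 clone 5 was high in CUL1, at 9.74 against 9.57 to 9.58.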

How the results depend on the processing

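The counts of members that rose and fell stayed within 1.5 times their values of 6 and 5 under every alternative run except the within-group axis as a covariate, where they were 0 and 0, and the other pathway genes that rose and fell, 25 and 34, were also 0 and 0. Members whose groups did not overlap numbered 7 with the span trend removed, against 12, and the cause was not tested. The share of 44.8% over all genes belongs to the deposited values, and the share with the span trend removed is not given here. With the axis covariate NFKBIL1 lay at 0.091, NFKB1 at -0.176 and NGFR at 0.049, each opposite to its call and not past the test, and with the span trend removed NFKB1 lay at -0.031. Leaving out single clones, NFKB1 passed in 2 of 8 fits, and the other 10 called members passed in all 8. TNFRSF10A-DT passed as lower without RWDD4 clone 24 or control clone 4 and after all 3 scalings. Median centring lowered the median of all genes by 0.125 (-0.125 log2), and after it, as after quantile normalization, 5 members rose and 7 fell. Over all 14884 genes 9072 passed after median centring and 7561 after quantile normalization. Of the other pathway genes named for their change, EDARADD failed to pass in 6 and XAF1 in 5 of these 8 fits. No paired analysis was possible because the groups share only 1 clone number and each clone is an isolate of its own. NFKB1 also failed to pass with the variance model that follows intensity (adjusted p 0.0544), where the other 10 passed. All levels rest on 8 arrays, and no background level was measured here.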
